A study of Mus musculus with 4 samples.

Results

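The genes described here are those of the extracellular matrix and of the cells that make it: every mouse collagen chain gene in the count tables, found by its symbol, and 15 fibroblast, pericyte, mesothelial and matrix genes given by name (Dcn, Lum, Pdgfra, Pdgfrb, Fbn1, Fn1, Sparc, Bgn, Fstl1, Serpinf1, Mfap5, Gsn, Msln, Upk3b and Wt1). The symbol rule found 43 collagens, so there were 58 genes of 23284 in all. They were measured by RNA sequencing of sorted Treg cells, the T cells that express FOXP3 and dampen immunity. All mice were C57BL/6 and aged 12 to 13 months. Cells were taken from spleen or from eWAT, the fat around the epididymis, and the mice were wild type (WT) or PPARg-2KR, a line with an altered form of the fat Treg factor PPARG. There was 1 library for each of the 4 groups, named by genotype and tissue (2KR for PPARg-2KR). Where a pair of values is given for a tissue, WT comes before 2KR. Whether a library held cells of 1 mouse or of several is not given in the sources used here.

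Collagens are the rod-shaped triple-helical proteins of connective tissue. Types I and III form the fibrils that fibroblasts lay down, type IV forms the sheet of the basement membrane under endothelium and around fat cells, and type VI forms beaded filaments that are plentiful in adipose tissue. Decorin, lumican and biglycan are small proteoglycans that bind fibrils. In visceral fat these genes are known from adipose progenitors, which are PDGFRA-positive fibroblasts, from pericytes, which are PDGFRB-positive, and from the mesothelium that covers the depot. Treg cells are not known as a main source of any of them. In sorted bulk RNA, more cells of another type and more RNA per cell cannot be told apart.

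Libraries held between 8315569 and 15993889 counted reads. A gene with 0 reads was limited by 3 reads to 0.242 and 0.196 CPM in spleen and to 0.277 and 0.312 CPM in eWAT, where CPM is the read count scaled to the library size after adjustment by the trimmed mean of M-values (TMM). Treg genes were abundant in all 4 libraries, with 6 marker genes (Foxp3, Il2ra, Ctla4, Ikzf2, Cd3e and Cd4) summing to between 4593 and 5921 CPM. Intervals on reads reflect counting error alone, as several reads can stem from 1 molecule. Within a tissue the genotypes have no replicate.

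The matrix genes were a trace in spleen and more than that in fat. In spleen they took 0.0117% of reads for WT (95% Clopper-Pearson interval 0.0111 to 0.0123%) and 0.00945% for 2KR (0.00898 to 0.00994%). In eWAT they took 0.149% for WT (0.147 to 0.152%) and 0.127% for 2KR (0.125 to 0.129%). Both fat libraries stood above both spleen libraries by far more than counting error. The collagens made up 0.0415 and 0.0486% of eWAT reads, and the 15 named genes 0.108 and 0.0784%. As a share of reads the collagens were thus higher in 2KR eWAT and the named genes lower. With TMM scaling, which is used below, the collagens summed to 428 and 420 CPM, a log2 ratio of 2KR over WT of −0.03 (counting interval −0.09 to 0.03), and the named genes had −0.72 (−0.76 to −0.67).

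In edgeR's quasi-likelihood test of the 2 eWAT against the 2 spleen libraries, at an adjusted p under 0.05, 49 of the 58 genes were higher in eWAT and none was lower. Over all genes 33.7% were higher and 23.2% were lower. Among genes of low level, with a mean under 5 CPM, 65.5% were higher, against 16.4% of genes at 5 CPM or more, so the background for the lowly expressed collagens was high. The median tissue log2 fold change was 5.89 for the named genes, 4.02 for the 16 most abundant collagens, 2.64 for the other 27 and 0.11 for all genes tested. All 16 abundant collagens were higher, but they were chosen by their level in eWAT, so that neither this count nor their larger median is independent of the choice. Of the 15 named genes 14 were higher. Of the other 27 collagens, 19 were higher, and the 8 that did not pass were Col23a1, Col11a2, Col15a1, Col20a1, Col16a1, Col9a3, Col28a1 and Col10a1. Fat levels exceeded spleen levels without overlap for 54 of the 58 genes, against 46.4% of all genes. The genotype difference is part of the spread in this test, and the p-values hold for these libraries alone, since nothing says that they came from separate animals.

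**Figure D1:**
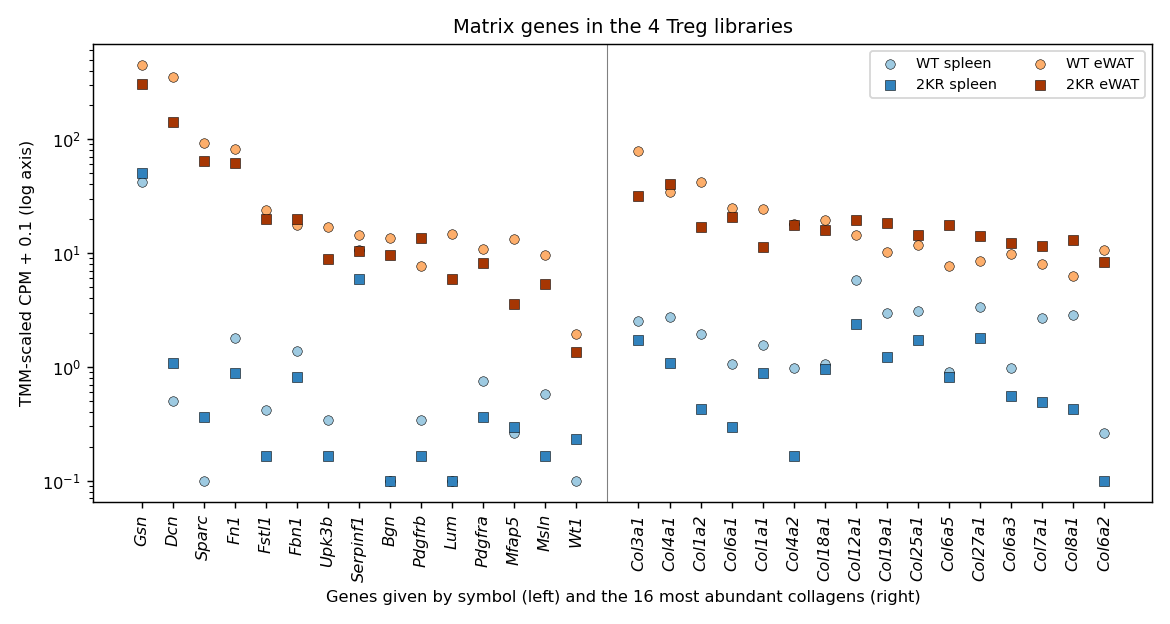
Level of each of the 15 named genes and the 16 most abundant collagens in the 4 libraries, as TMM-scaled CPM plus 0.1 on a log axis, with 1 point per library. Gsn and Dcn reach 449 and 348 CPM in WT eWAT, and Serpinf1 is the gene whose fat and spleen points lie close together.

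Gsn (chromosome 2, 35111879 to 35163422 in mm9), the actin-severing protein gelsolin, had the most reads of the 58 in each library. It stood at 42.1 and 50.7 CPM in spleen and 449 and 304 CPM in eWAT. It was the only gene of the set with a clear level in spleen other than Serpinf1, and its fat levels were well above both spleen levels (log2 fold change 3.02, SE 0.25, edgeR adjusted p = 6.55e-07). Gelsolin is made in a cytoplasmic form, found in most cells, and in a secreted plasma form with an added signal peptide, and the forms start from different first exons. The authors' transcript table lists starts at positions 35111879, 35122264 and 35137900 of chromosome 2 in mm9. The table holds 4 transcripts, and a second one of the first start had at most 0.00797 FPKM in any library. Transcripts from the first and second start code for 731 codons and the transcript from the third start for 780 codons, the length of the secreted form, by the GENCODE annotation. The 3 starts have the same spacing, 10385 and 15636 bases, in RefSeq's GRCm38.p6 annotation.

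The 100 bases before each of these starts are shown because the libraries differed in which start the Gsn reads were assigned to. They lie at chr2:35256259-35256358, chr2:35266644-35266743 and chr2:35282280-35282379 of GRCm38.p6, plus strand, from RefSeq. Capitals mark GGGCGG or, on the other strand, CCGCCC, the GC box letters.
Gsn, the first start: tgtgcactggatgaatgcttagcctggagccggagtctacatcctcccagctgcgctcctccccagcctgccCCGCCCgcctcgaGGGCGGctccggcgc
Gsn, the second start: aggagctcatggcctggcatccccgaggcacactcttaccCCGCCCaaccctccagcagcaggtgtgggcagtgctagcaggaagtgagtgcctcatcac
Gsn, the third start: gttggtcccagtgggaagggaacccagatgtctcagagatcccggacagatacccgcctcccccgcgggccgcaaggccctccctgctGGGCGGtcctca
The first window is 70% G and C and holds the letters at 2 places, the second is 63% and the third 68%, each with 1 place. None of the 3 windows holds CCAAT or TATAAA on either strand.

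The transcript of the cytoplasmic first start was present in all 4 libraries. It stood at 15.97 and 18.5 FPKM in spleen and 14.6 and 35.5 FPKM in eWAT, where FPKM is the authors' Cufflinks value, scaled for transcript length and library size. The Cufflinks intervals of WT spleen (14.6 to 17.4 FPKM) and WT eWAT (12.6 to 16.6 FPKM) overlapped. That of 2KR spleen (17.1 to 19.9 FPKM) lay above WT eWAT, and that of 2KR eWAT (32.0 to 38.9 FPKM) lay above all others. The third start, of the secreted form, was in effect 0 in WT spleen (interval 0 to 0.0593 FPKM) and 0.528 FPKM in 2KR spleen, against 132 FPKM in WT eWAT (128 to 137) and 103 FPKM in 2KR eWAT (97.8 to 108). Its share of Gsn was 2.70% in 2KR spleen and 73.8 and 69.6% in the eWAT libraries, whereas the first start made up 99.9% and 94.7% in WT and 2KR spleen.

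The second start was likewise a fat signal, at 0.00852 and 0.499 FPKM in spleen and 32.3 and 9.54 FPKM in eWAT. Between the genotypes in fat, Gsn as a gene was lower in 2KR (log2 ratio −0.56, 95% exact counting interval −0.63 to −0.50). Of its transcripts, those from the second start and the third start were lower in 2KR eWAT than in WT eWAT and that of the first start was higher, with no overlap of the Cufflinks intervals. So by the Cufflinks values the spleen level of Gsn was that of the cytoplasmic transcript, and the fat level was mostly that of the transcript coding for the secreted form. Reads shared by similar transcripts are divided by estimate. For Pdgfrb, with transcripts of 5413 and 5410 bases, the longer made up 99.99% in WT eWAT and 0.00879% in 2KR eWAT, also without overlap of intervals. Whether such assignment had a part in the opposite changes of the first and second Gsn start was not tested.

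**Figure D2:**
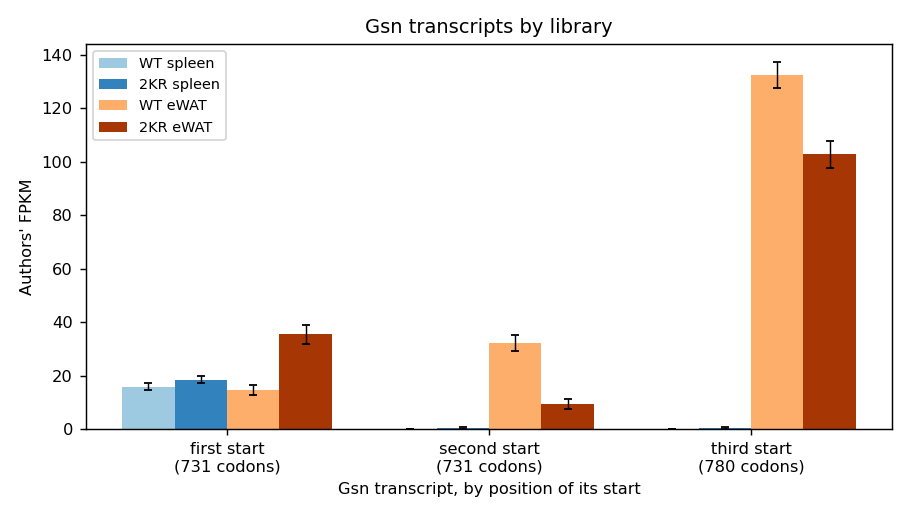
FPKM of the main Gsn transcript of each of the 3 starts in the 4 libraries, with the Cufflinks interval as error bar. The third start is at 132 and 103 FPKM in the fat libraries and near 0 in spleen, while the first start is present in all 4 libraries at 14.6 to 35.5 FPKM.

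The fibril-binding proteoglycans were near or at 0 in spleen and clearly present in fat. Dcn (decorin, chromosome 10, 96942134 to 96980796 in mm9) stood at 0.403 and 0.982 CPM in spleen and 348 and 143 CPM in eWAT (log2 fold change 8.40, SE 0.49, edgeR adjusted p = 2.96e-08). On the per-length scale Dcn had the highest level of the set in WT eWAT, at 204 FPKM against 179 FPKM for Gsn. In 2KR eWAT it was below Gsn, at 101 against 148 FPKM. Lum (lumican) had 0 reads in both spleen libraries, 159 in WT eWAT and 56 in 2KR eWAT, so that its fat level was at least 46.8-fold higher than the spleen floor of 3 reads per library. Bgn (biglycan) also had 0 reads in both spleen libraries, with 146 and 91 in WT and 2KR eWAT, at least 52.3-fold higher by the same floor. None of the 3 overlapped between tissues. All 3 were lower in 2KR eWAT, with log2 ratios of −1.29 for Dcn (−1.38 to −1.20), −1.30 for Lum (−1.80 to −0.88) and −0.50 for Bgn (−0.90 to −0.12).

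The fibril collagens followed Dcn. Col3a1 (chromosome 1, 45368383 to 45406551), the chain of type III collagen, stood at 2.42 and 1.64 CPM in spleen and 77.9 and 31.4 CPM in eWAT. Col1a2 (chromosome 6, 4455697 to 4491543), a chain of type I, stood at 1.86 and 0.327 CPM in spleen and 42.3 and 17.0 CPM in eWAT. Col1a1 (chromosome 11, 94797584 to 94813170), the other type I chain, stood at 1.45 and 0.786 CPM in spleen and 24.4 and 11.2 CPM in eWAT. Each was high in both fat libraries and highest in WT eWAT, and tissue log2 fold changes were 4.76 for Col3a1 (SE 0.42) and 4.82 for Col1a2 (SE 0.59), with an edgeR adjusted p of 4.2e-05 for Col1a1. The genotype log2 ratio in fat was −1.30 for Col3a1 (−1.50 to −1.12), −1.31 for Col1a2 (−1.58 to −1.06) and −1.10 for Col1a1 (−1.45 to −0.79), so that the 3 chains were lower in 2KR eWAT by about the same factor as Dcn and Lum. Per length, Col3a1 was 3.40 times Col1a1 in WT eWAT and 3.93 times in 2KR eWAT, and Col1a1 was 0.523 and 0.455 of Col1a2. Type I collagen joins its alpha 1 and alpha 2 chains in unequal number, with more of alpha 1, and the FPKM values had the opposite order in both fat libraries.

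Windows of the same length are shown for Col1a2 and Col3a1, the pair of fibril collagens with most reads in fat, since their ratios were alike. They lie at chr6:4505518-4505617 and chr1:45311438-45311537 of GRCm38.p6, plus strand, from RefSeq. Neither holds the GC box letters.
Col1a2: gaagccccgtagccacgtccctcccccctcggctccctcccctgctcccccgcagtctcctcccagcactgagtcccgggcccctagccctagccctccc
Col3a1: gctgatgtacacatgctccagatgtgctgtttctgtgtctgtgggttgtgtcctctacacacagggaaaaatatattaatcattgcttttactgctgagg
The Col1a2 window is 74% G and C and that of Col3a1 43%, and neither holds CCAAT or TATAAA in these 100 bases. RefSeq entries were found for 43 of the 58 genes, with 48 starts. GGGCGG on either strand was in 23 of these 48 windows (47.9%), against 24.7% of the windows of all 32851 starts. CCAAT was in 4 (8.33%, against 18.9%) and TATAAA in 2 (4.17%, against 5.56%). The motifs do not overlap each other, and a match is a description of the letters, not of a bound factor.

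Among the basement membrane collagens, Col4a1 stood at 2.66 and 0.982 CPM in spleen and 34.4 and 40.3 CPM in eWAT. Col4a2, its partner chain in the common type IV trimer, stood at 0.887 and 0.0655 CPM in spleen and 17.998 and 17.6 CPM in eWAT. Both genes were high in both fat libraries (log2 fold changes 4.39, SE 0.38, and 5.28, SE 0.64). Unlike the fibril collagens they were close to level between the genotypes in fat, with log2 ratios of 0.22 (0.02 to 0.44) and −0.03 (−0.34 to 0.27). Col4a1 was 0.307 of Col3a1 per length in WT eWAT and 1.02 of it in 2KR eWAT. Col18a1, a basement membrane collagen whose end fragment is endostatin, stood at 19.3 and 15.9 CPM in eWAT, below 1 CPM in both spleen libraries, with a fat genotype log2 ratio of −0.27 (−0.59 to 0.03).

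Type VI collagen was also a fat signal. Col6a1 stood at 0.968 and 0.196 CPM in spleen and 24.6 and 20.5 CPM in eWAT, Col6a2 at 0.161 and 0 CPM in spleen and 10.6 and 8.32 CPM in eWAT, and Col6a3 at 0.887 and 0.458 CPM in spleen and 9.78 and 12.1 CPM in eWAT. These 3 chains assemble into the usual type VI monomer, and their genotype log2 ratios in fat were −0.26, −0.34 and 0.30, each with a counting interval that included 0. Summed by class, reads in fat had a genotype log2 ratio of −0.67 for the 11 fibrillar chains (−0.78 to −0.57), 0.21 for the 6 basement membrane chains (0.06 to 0.36), 0.18 for the 7 beaded filament chains (0.03 to 0.33) and 0.51 for the 9 fibril-associated (FACIT) chains (0.35 to 0.68). The fibrillar sum was mostly Col3a1, Col1a2 and Col1a1: of the 11 chains 7 had a ratio above 0, with a median of 0.39. Of the 7 beaded filament chains 5 had a ratio above 0, but Col6a5 (1.17, 0.80 to 1.59) was the only 1 whose counting interval lay above 0.

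The remaining abundant collagens were higher in 2KR eWAT than in WT eWAT. Col12a1, a FACIT collagen that decorates fibrils, stood at 5.65 and 2.29 CPM in spleen and 14.2 and 19.4 CPM in eWAT, with a tissue log2 fold change of 2.09 (SE 0.44). Col8a1, a short chain collagen of vessel walls, stood at 2.74 and 0.327 CPM in spleen and 6.18 and 12.8 CPM in eWAT. Col6a5, a chain that can replace Col6a3 in type VI, stood at 0.807 and 0.720 CPM in spleen and 7.66 and 17.5 CPM in eWAT. In all 3 the fat libraries stood above the spleen libraries, with 2KR the higher of the fat pair. Genotype log2 ratios in fat were 0.44 for Col12a1 (0.13 to 0.76), 1.03 for Col8a1 (lower bound 0.61) and 1.17 for Col6a5 (0.80 to 1.59). For the FACIT chain Col19a1, the fibrillar chain Col27a1, the anchoring fibril chain Col7a1 and the transmembrane Col25a1 the ratios were 0.84, 0.71, 0.50 and 0.29, the last with an interval that included 0.

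The matrix glycoproteins differed in how they fared between genotypes. Sparc (osteonectin, a collagen-binding protein) stood at 0 and 0.262 CPM in spleen and 91.9 and 63.8 CPM in eWAT. Fn1 (fibronectin, which links matrix to integrins) stood at 1.69 and 0.786 CPM in spleen and 81.8 and 62.2 CPM in eWAT. Fstl1, a secreted follistatin-like glycoprotein, stood at 0.323 and 0.0655 CPM in spleen and 23.9 and 19.9 CPM in eWAT. All 3 were higher in fat without overlap, by log2 fold changes of 8.98 (SE 0.46), 5.89 (SE 0.33) and 6.83 (SE 0.56), and their genotype log2 ratios in fat were −0.53 (−0.67 to −0.38), −0.39 (−0.55 to −0.24) and −0.26 (−0.54 to 0.01).

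Fbn1 (fibrillin 1, the backbone of microfibrils) stood at 1.29 and 0.720 CPM in spleen and 17.6 and 19.9 CPM in eWAT. Mfap5, a microfibril-associated glycoprotein, stood at 0.161 and 0.196 CPM in spleen and 13.2 and 3.43 CPM in eWAT. Although both belong to microfibrils, Fbn1 was level in fat (0.17, −0.12 to 0.47) whereas Mfap5 had the lowest genotype log2 ratio of the set (−1.88, −2.54 to −1.39). Serpinf1, the secreted factor PEDF, was the named gene that did not pass the tissue test, at 10.5 and 5.83 CPM in spleen and 14.3 and 10.3 CPM in eWAT (log2 fold change 0.60, SE 0.39, edgeR adjusted p = 0.196). Its spleen and fat levels overlapped, and the level in WT was above that in 2KR in each tissue.

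The platelet-derived growth factor receptors, which mark progenitors (Pdgfra) and mural cells (Pdgfrb), differed in direction between the fat libraries. Pdgfra stood at 0.645 and 0.262 CPM in spleen and 10.8 and 8.01 CPM in eWAT, with a genotype log2 ratio in fat of −0.42 and a counting interval that ended just under 0. Pdgfrb stood at 0.242 and 0.0655 CPM in spleen and 7.66 and 13.5 CPM in eWAT, with a ratio of 0.80 (0.41 to 1.24). Per length, Pdgfrb was 0.8003 of Pdgfra in WT eWAT and 2.30 times Pdgfra in 2KR eWAT. Both receptors were higher in fat than in spleen (log2 fold changes 4.38, SE 0.64, and 6.08, SE 0.75).

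The mesothelial genes were likewise a fat signal. Upk3b (uroplakin 3B) stood at 0.242 and 0.0655 CPM in spleen and 17.0 and 8.84 CPM in eWAT, and Msln (mesothelin, a surface protein of the layer) at 0.484 and 0.0655 CPM in spleen and 9.41 and 5.20 CPM in eWAT. Wt1, the transcription factor of mesothelium, had 0 and 2 reads in spleen and 20 and 12 in eWAT. All 3 were higher in fat, with edgeR adjusted p of 1.38e-05, 0.000429 and 0.00384. Upk3b (−0.93, −1.33 to −0.56) and Msln (−0.83, −1.37 to −0.35) were lower in 2KR eWAT, and for Wt1 the interval was wide (−0.50, −1.73 to 0.54). Per length, Dcn was 24.9 times Upk3b in WT eWAT and 21.4 times in 2KR eWAT.

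Between the 2KR and WT fat libraries, 57 of the 58 genes could be compared, with 30 or more reads in the pair (Col4a6 had 25). At a log2 ratio of −1 or lower there were 6 genes, Mfap5, Col1a2, Col3a1, Lum, Dcn and Col1a1, against 2.17% of all genes (2.01% of those with fewer than 300 reads in the pair and 2.32% of the rest). At 1 or higher there were also 6, Col17a1, Col9a3, Col6a5, Col24a1, Col4a4 and Col8a1, against 8.74% of all genes (17.7% of those with fewer than 300 reads and 0.876% of the rest). The 6 low genes had between 176 and 5146 reads over the fat pair. The 6 high genes had between 54 and 251, so that the background to read them against is 17.7%. The counting interval lay below 0 for 14 genes, against 30% of all genes (7.24% of those with fewer than 300 reads and 50% of the rest). It lay above 0 for 16, against 26.4% (36.4% and 17.6%).

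Of the 15 named genes 13 had a ratio below 0, with a median of −0.50, and the 2 above were Pdgfrb and Fbn1. Over all genes 48.1% were below 0 (25.4% of those with fewer than 300 reads in the pair and 68% of the rest). Of 42 collagens 34 had a ratio above 0, against 51.9% of all genes (74.6% and 32%), so that for collagens of few reads this count was near the background. The medians were 0.26 for the 16 abundant and 0.51 for the other 26 compared. The median of all genes was 0.02, but it depended on the reads: 0.43 for genes with fewer than 300 reads in the fat pair and −0.17 for genes with 300 or more. The less abundant collagens thus had a median near that of genes of few reads in general. Scaling by total count moved the median of all genes from 0.02 to 0.27, and with that scaling the 57 genes had a median of 0.48. There is 1 library for each genotype, and no test of these differences.

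**Figure D3:**
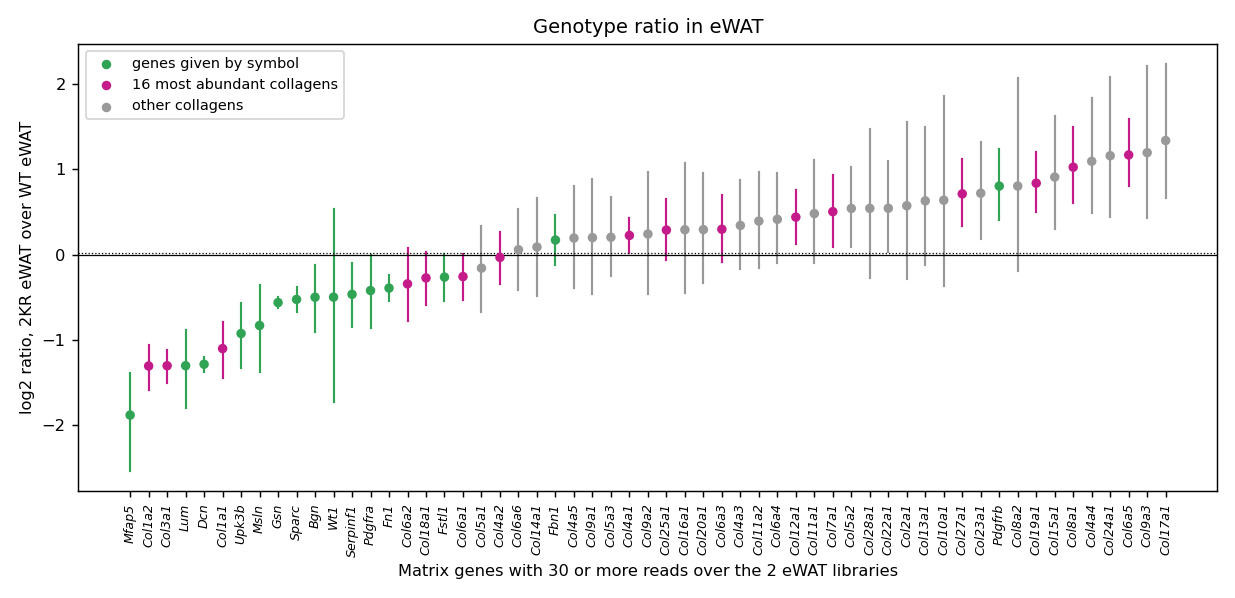
Log2 ratio of 2KR eWAT over WT eWAT for the 57 matrix genes with 30 or more reads in the pair, with 95% exact counting intervals, and a dotted line at the median of all genes (0.02). Mfap5 at −1.88 and the group of Col1a2, Col3a1, Lum, Dcn and Col1a1 lie at the low end, and collagens of few reads with wide intervals at the high end.

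For the collagens of low level, the counts and the authors' FPKM did not give the same amount. The ratio of FPKM to the same quantity computed from the deposited reads had a median of 0.985 over all genes in eWAT and 0.985 over the 15 named genes, of which Wt1 (0.56), Msln (0.57) and Fbn1 (0.68) were lowest. It was 0.698 over the 16 abundant collagens and 0.331 over the other 27, against 0.878 for all genes of fewer than 300 fat reads. Col13a1, a transmembrane collagen, had 24 and 34 reads in WT and 2KR eWAT and a ratio of 0.00. Col24a1, a minor fibrillar chain, had 20 and 42 reads and a ratio of 0.08. Among the abundant ones Col7a1, the anchoring fibril collagen of skin, had a ratio of 0.17, and Col27a1 and Col12a1 had 0.37 and 0.40, whereas Col3a1 (0.92), Col6a1 (0.91), Col6a2 (0.97) and Col1a2 (0.88) were close to 1.

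**Figure D4:**
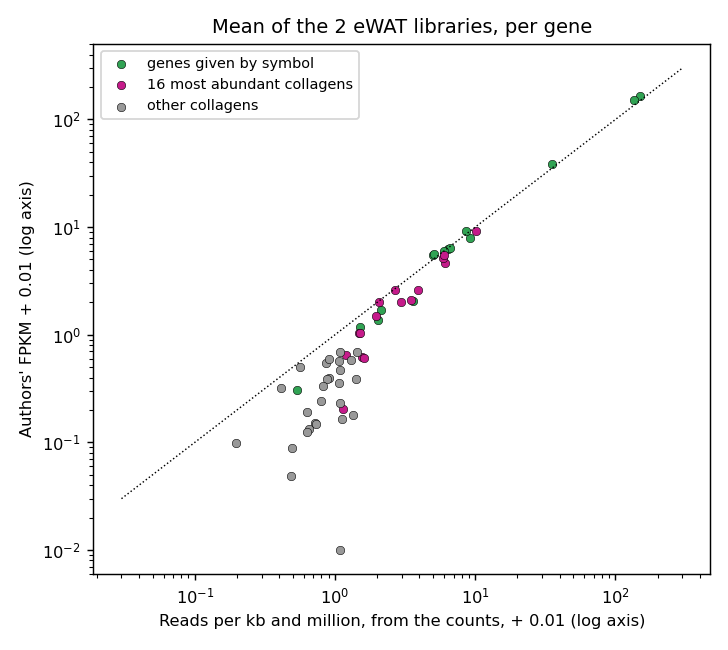
Authors' FPKM against the same length- and depth-scaled quantity computed from the deposited counts, for the 58 genes in the eWAT libraries on log axes, with a dotted line at equality. The named genes have a median ratio of 0.985, with Wt1 and Msln under the line at 0.56 and 0.57, and the 27 less abundant collagens have a median of 0.331.

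Olfactory and vomeronasal receptor genes, which T cells and fat are not known to express, were added after seeing the data to show the level of reads at genes of this kind. The 1123 olfactory receptor genes had 2557 and 1656 reads in spleen and 5154 and 9040 in eWAT, and the 328 vomeronasal receptor genes had 926 and 727 in spleen and 1654 and 3170 in eWAT. Their sums had genotype log2 ratios in fat of 0.98 and 1.11. The median FPKM of an olfactory receptor gene was 0.244 in WT eWAT and 0.663 in 2KR eWAT, and that of the 27 less abundant collagens was 0.275 and 0.244. By FPKM these 27 collagens were thus close to the olfactory receptor genes in WT eWAT and below them in 2KR eWAT. The ratio of FPKM to counts had a median of 0.331 over these collagens and 1.14 over the olfactory receptor genes. The order by FPKM therefore need not hold for the counts. The summed genotype log2 ratio of the 27 collagens in fat was 0.46 (0.34 to 0.58). The part of such reads in the collagen values was not tested.

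The question of which fat cell type the trace resembles was addressed with 2 marker lists, 18 genes of adipose progenitors and 18 of mesothelium, and both were present. Pdgfra and Col15a1 belong to the first list and Msln, Upk3b and Wt1 to the second. Of 17 progenitor genes tested 13 were higher in eWAT and 1, Dpp4, was lower. Of 17 mesothelial genes tested 15 were higher and none lower. Median tissue log2 fold changes were 4.41 and 4.49, against 0.11 over all genes. The share of all genes that were higher is 33.7%, as above.

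Of the progenitor genes, Efemp1 (fibulin 3) stood at 1.45 and 0.655 CPM in spleen and 70.7 and 40.5 CPM in eWAT, Smoc2 at 0.0807 and 0 CPM in spleen and 26.2 and 12.2 CPM in eWAT, and Pi16, a marker of early progenitors, at 0.323 and 0.131 CPM in spleen and 6.92 and 2.81 CPM in eWAT. All 3 were far higher in fat and lower in 2KR eWAT than in WT eWAT. Dpp4 went the other way, at 217 and 236 CPM in spleen and 71.1 and 156 CPM in eWAT, and is also a T cell surface protein (CD26). Cd34, which vessel cells also carry, stood at 26.9 and 32.6 CPM in eWAT and Fmo2 at 13.7 and 15.9 CPM. Of the mesothelial genes, Lrrn4 stood at 5.16 and 8.12 CPM in spleen and 102 and 44.9 CPM in eWAT, Gpm6a at 0.161 and 0.131 CPM in spleen and 14.8 and 10.8 CPM in eWAT and Aldh1a2, which makes retinoic acid, at 2.02 and 0.262 CPM in spleen and 33.1 and 45.0 CPM in eWAT. Slpi, a protease inhibitor that other cells also make, stood at 15.9 and 9.89 CPM in spleen and 23.1 and 2.39 CPM in eWAT and did not pass the tissue test. Calb2 had 0 reads in 3 libraries, and Gdf10 and Wnt2 of the progenitor list had 0 in both spleen libraries.

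The balance of the 2 lists depended on Dpp4. The progenitor list summed to 1.15 times the mesothelial list in WT eWAT and 2.05 times in 2KR eWAT on the CPM scale. Without genes at 20 CPM or more in a spleen library, which removed Dpp4 alone, the ratios were 0.860 and 1.04. With FPKM in place of CPM and without Dpp4, they were 0.714 and 0.940, from sums of 87.9 against 123 FPKM in WT eWAT and 70.7 against 75.1 FPKM in 2KR eWAT. The mesothelial sums still held Slpi, which did not pass the tissue test. It had 32.5 and 4.16 FPKM in eWAT and 21.4 and 13.3 FPKM in spleen, so the FPKM ratios depended on Slpi too. Sums over different genes do not give shares of cells. What the values show is a trace with markers of both cell types at levels of the same order.

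Between the fat libraries, mesothelial genes were mostly lower in 2KR and progenitor genes were mixed. Over 16 mesothelial genes the median genotype log2 ratio was −0.57, with 13 below 0, and the ratio of the sums was −0.69 (−0.78 to −0.60). Over 17 progenitor genes the median was −0.27, with 9 below 0, whereas the ratio of the sums, with Dpp4, was 0.15 (0.07 to 0.22). Over all genes the median was 0.02, with 48.1% below 0. The progenitor genes at −1 or lower were F3 (−1.51), Cd248 (−1.39), Pi16 (−1.24), Smoc2 (−1.09) and Dpt (−1.08), and the mesothelial ones were Slpi (−3.17), Nkain4 (−1.29) and Lrrn4 (−1.17). The share of all genes at that limit was 2.17%. The counting interval lay above 0 for the progenitor genes Dpp4 (1.13), Col15a1 (0.91), Zfp423 (0.69) and Cd34 (0.28). It also lay above 0 for the mesothelial genes Cldn15 (0.55) and Aldh1a2 (0.44). It lay below 0 for 8 progenitor and 9 mesothelial genes. Over all genes it lay above 0 for 26.4% and below 0 for 30%. Whether the lists differed from each other was not tested.

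Pericyte and smooth muscle markers went the opposite way. All 10 tested were higher in fat than in spleen, against 33.7% of all genes (65.5% of those under 5 CPM). All 10 had a genotype ratio above 0, with a median of 0.87. Over all genes 51.9% were above 0 (74.6% of those with fewer than 300 reads in the fat pair and 32% of the rest). Acta2 (smooth muscle actin) stood at 1.13 and 0.917 CPM in spleen and 21.7 and 59.9 CPM in eWAT, a fat log2 ratio of 1.46 (1.24 to 1.69). Myh11 (smooth muscle myosin) stood at 1.21 and 0.524 CPM in spleen and 10.5 and 35.8 CPM in eWAT, a ratio of 1.75 (1.46 to 2.08). Tagln (0.84), Rgs5 (0.90) and Notch3 (0.74) shared that direction with Pdgfrb.

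Endothelial markers, of which 13 of 14 were higher in fat, had a median genotype ratio of 0.61, with Cav1 at 0.79 and Vwf at 0.96. For this count and those of the lists below, the share of all genes higher in fat is 33.7% (65.5% of those under 5 CPM). Pecam1 was lower in fat than in spleen, at 172 and 190 CPM in spleen and 63.4 and 112 CPM in eWAT. Col4a1 and Col4a2, which vessel cells are known to make, had fat ratios of 0.22 and −0.03. These lay between the medians of the progenitor and the endothelial list, as did the median of all genes (0.02). Macrophage markers were higher in fat for 9 of 9, with a median genotype ratio of 0.26, and their sum, mostly Lyz2 in fat, was 112 and 74.0 CPM in spleen and 1232 and 1552 CPM in eWAT. Of 4 adipocyte markers tested 3 were higher in fat and 1 lower. The fat cell hormone Adipoq, not among those tested, had 0 reads in WT eWAT but 1.14 CPM (11 reads) in the 2KR fat library. It was no fat signal, as the spleen libraries held 3 and 8 reads of Adipoq. Cfd, also not tested, went the other way between the fat libraries, with 20 reads for WT against 6 for 2KR. It had 0 reads in both spleen libraries. Of 3 Schwann cell markers tested 2 were higher, and none of that list exceeded 2.42 CPM in any library. The part of each cell type in the collagen values was not tested.

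**Figure D5:**
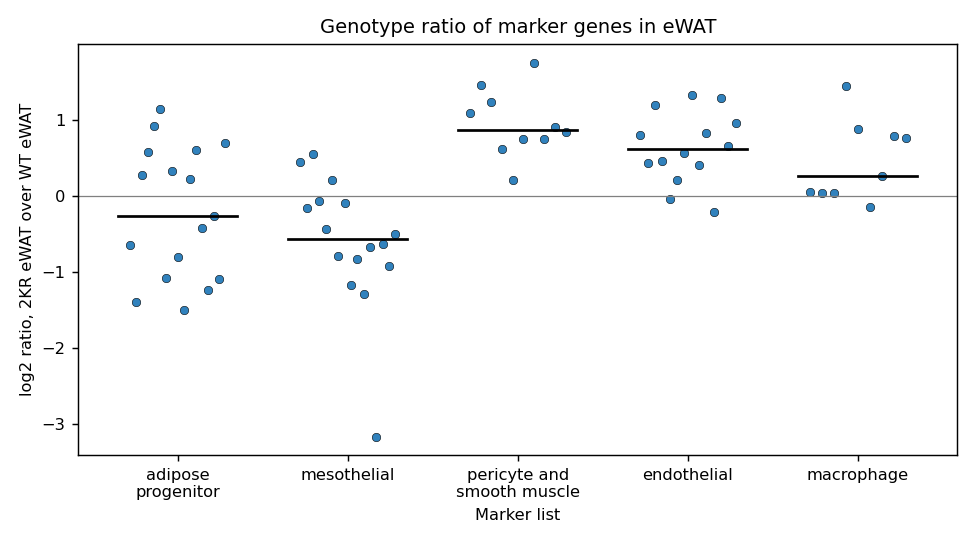
Log2 ratio of 2KR eWAT over WT eWAT for each marker gene of 5 cell type lists, with a bar at the median of each list. Medians are −0.27 for adipose progenitor, −0.57 for mesothelial, 0.87 for pericyte and smooth muscle, 0.61 for endothelial and 0.26 for macrophage genes.

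Genes that make and crosslink collagen were mixed. Of 25 tested 17 were higher in fat and none lower, against 33.7 and 23.2% of all genes. Among genes under 5 CPM 65.5% were higher. The median genotype log2 ratio of the 25 was −0.04. The general enzymes were at high levels in all 4 libraries, with P4hb (protein disulfide isomerase, a subunit of prolyl hydroxylase) at 483 and 430 CPM in spleen and 416 and 405 CPM in eWAT. The collagen-specific chaperone Serpinh1 (HSP47) stood at 0.484 and 0 CPM in spleen and 27.97 and 15.2 CPM in eWAT and had a fat ratio of −0.87 (−1.18 to −0.59). Plod2, the lysyl hydroxylase of fibril crosslinks, stood at 2.42 and 0.786 CPM in spleen and 25.2 and 6.03 CPM in eWAT, with a ratio of −2.03 (−2.50 to −1.65). Serpinh1 and Plod2, picked after their values were seen, were thus low in spleen and lower in 2KR eWAT than in WT eWAT, as were the fibril collagens. The list as a whole did not share that direction. Of its 25 genes 16 had a ratio below 0 and 9 above, with 2 at −1 or lower and 2 at 1 or higher (the highest 1.73). The shares of all genes at these limits were 2.17 and 8.74%. Lox, the enzyme that crosslinks collagen and elastin, had 0 reads in both spleen libraries and 3.23 and 2.91 CPM in the fat libraries.

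Of 29 other matrix genes tested, 25 were higher in fat and 1, the protease inhibitor Timp2, was lower (288 and 240 CPM in spleen and 152 and 138 CPM in eWAT). Their median genotype log2 ratio was 0.12. For these and for the receptors below, the share of all genes higher in fat is 33.7% (65.5% of those under 5 CPM). Lamc1, a laminin chain, stood at 48.1 and 54.1 CPM in spleen and 136 and 88.3 CPM in eWAT, Timp3 at 0.0807 and 0.458 CPM in spleen and 52.0 and 70.7 CPM in eWAT and Fbln2 at 2.26 and 0.0655 CPM in spleen and 32.7 and 47.9 CPM in eWAT. The proteoglycan Fmod (fibromodulin), close kin of lumican, had a fat genotype ratio of −1.32 (−1.80 to −0.90), near that of Lum and Dcn, and Thbs1 had −1.16 (−1.42 to −0.92). Of 10 receptors that bind matrix, 7 were higher in fat, among them Cd44, the hyaluronan receptor that T cells also carry, at 197 and 217 CPM in spleen and 701 and 349 CPM in eWAT. The collagen-binding integrin chains Itga1 (1.45 and 0.786 CPM in spleen and 27.4 and 36.6 CPM in eWAT) and Itga2 (3.87 and 2.095 CPM in spleen and 24.3 and 18.8 CPM in eWAT) were higher in fat as well.

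In spleen, 21 of the 58 genes had 30 or more reads. Their median genotype log2 ratio was −0.78, against −0.05 for all genes, and 18 of the 21 were below 0, against 57.8% of all genes. The counting interval was below 0 for 11 (29.9% of all genes) and above 0 for 2 (19.3%). At −1 or lower were 6 genes, all collagens (Col8a1 −2.61, Col7a1 −2.34, Col4a3 −1.32, Col4a1 −1.32, Col19a1 −1.28 and Col12a1 −1.25), against 3.28% of all genes. Col11a2 was the 1 gene at 1 or higher (1.09), against 0.837% of all genes. Olfactory receptor reads had a spleen genotype log2 ratio of −0.93, so that here too the low collagens went with them, and their part was not tested. The spleen levels were small, with the highest collagen at 5.65 CPM in WT spleen and 3.93 CPM in 2KR spleen.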

How the data were processed

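RNA of sorted Treg cells was sequenced as 4 libraries, 1 for each tissue and genotype. The deposited counts are whole reads per gene symbol, with no scaling. Per the deposited readme, base calls became 100 bp reads in bcl2fastq 1.8.4, and TopHat 2.1.0 placed these on mm9 with up to 4 mismatches and 10 multiple hits. The sources used here do not name the tool that counted or its use of strand, so overlapping genes and near-identical copies are uncertain. The submitters' processing notes also name mm8. The authors made the FPKM values with Cufflinks 2.0.2, per gene and transcript, and FPKM served for levels between genes, for Gsn transcripts and for alternatives.

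Scaling (TMM) and the tissue test used edgeR 4.0.16 in R 4.3.3, with the filterByExpr filter (16488 genes tested) and Benjamini-Hochberg adjustment at 0.05; DESeq2 1.42.0 served as an alternative. The biological coefficient of variation was 0.221. Genotype ratios within a tissue have no test: each is a log2 ratio of CPM, after TMM and with 2 reads as the prior count, for genes with 30 or more reads in the pair, with exact conditional binomial intervals of 95%. The remaining steps ran in Python 3.11.15 (scipy 1.17.1, pandas 2.3.3, numpy 2.4.6, and matplotlib 3.10.9 for figures). The ratio of FPKM to counts used the mean length of a gene's transcripts and the plain library total. Promoter windows came from RefSeq (GRCm38.p6) and coding lengths from GENCODE. The steps were tested on simulated data.

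The genes and lists were chosen with earlier results of these data known. Named were the 15 genes given by symbol, the 16 collagens with the highest mean CPM in eWAT, and up to 5 genes per list with the highest eWAT CPM, together with markers at 0 reads. Named after their values were seen were the collagens past 2-fold in a tissue or not passing the tissue test, Col13a1, Pi16, Serpinh1, Plod2, Lox and Fmod. So were the list genes at −1 or lower, and Zfp423 and Cldn15, whose intervals lay above 0. Of the listed symbols, Muc16, Adgre1 and Colgalt1 were not matched.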

Additional observations from a re-analysis of the deposited data

Results flagged for a closer look

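Of the 21 matrix genes with 30 or more reads in both tissues, 7 had a 2KR over WT log2 ratio of opposite sign in fat and in spleen, each with a counting interval that left out 0. That is 33.3%, against 13.3% of the 11719 genes with as many reads. Of all genes with fewer than 300 reads in fat, 9.61% were above 0 in fat and below 0 in spleen, and genes of few reads had median ratios of 0.43 in eWAT and −0.18 in spleen. The difference between tissues was not tested, since each group has 1 library.

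In 6 collagens the ratio was above 0 in eWAT and below 0 in spleen. Col4a1 had 0.22 in eWAT and −1.32 in spleen, and Col12a1 had 0.44 and −1.25. Col19a1 had 0.84 and −1.28, and Col27a1 had 0.71 and −0.87. Col7a1 had 0.50 and −2.34, and Col8a1 had 1.03 and −2.61. Gsn went the other way, with −0.56 in eWAT and 0.27 in spleen, where its reads were mostly assigned to the first start. Olfactory receptor genes, which should not be expressed, had summed ratios of 0.98 in eWAT and −0.93 in spleen, the same signs as the 6 collagens. Whether such reads had a part in those values was not tested.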

How the results depend on the processing

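The number of matrix genes higher in eWAT lay between 42 (without 2KR eWAT) and 52 (upper quartile scaling) over 10 alternatives, among them DESeq2 (48) and genotype as a further term (45), and none was lower in any of them. Over all genes, the number higher was 5555 and 3402 to 5491 when each library was left out in turn (the lowest without 2KR eWAT), and the number lower was 3833, 1909 to 5278 in the same runs (1909 without WT spleen, 2178 without 2KR spleen) and 1861 with upper quartile scaling, where 6670 were higher. In runs that left a tissue with 1 library, that library was assumed to vary like the others. Named genes kept their tissue call in all 309 refits. Of the less abundant collagens, 6 lost their call in at least 1 alternative and 3 gained one, and 2 that did not pass changed sign.

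In eWAT the median genotype ratio of 0.24 (21 genes below 0 and 36 above) was 0.48 with total count scaling, 0.01 with at least 100 reads (20 below and 20 above) and 0.06 with FPKM (27 below and 29 above, where all genes had 0.23), and the genes at 1 or higher numbered 10 with that scaling and 2 with at least 100 reads. In spleen, the genes at −1 or lower numbered 13 with at least 10 reads, 1 with at least 100 reads and 2 with FPKM, and those at 1 or higher numbered 2 and 0 with at least 10 and 100 reads. Of the single-gene ratios in eWAT, 14 moved and 202 did not. None whose counting interval left out 0 changed sign. A change of sign in a ratio whose interval included 0 was not counted. Col4a2, for example, had −0.03, but its FPKM was 1.86 in WT eWAT and 2.12 in 2KR eWAT. With TMM-adjusted library size the share of reads was 0.0125% for WT spleen, and 0.154% and 0.110% for eWAT of WT and 2KR.

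The progenitor to mesothelial ratio in WT and 2KR eWAT was 0.830 and 1.45 with FPKM, 1.45 and 1.46 without the most abundant gene of each list, 0.860 and 1.04 without genes at 20 CPM or more in a spleen library, and 0.714 and 0.940 with the last applied to FPKM, a setting chosen after seeing the data. The log2 ratio of the progenitor sum, 0.15, became −0.42 without its most abundant gene, −0.42 without genes at 20 CPM or more in spleen (Dpp4 in both), −0.31 with the latter on FPKM and −0.27 as the median over genes. That of the mesothelial sum, −0.69, was −0.43 without its most abundant gene and −0.57 as the median.

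No paired analysis was possible because all libraries carry the replicate number 1, so that a block on it cannot be formed. The fit with genotype as a further term compared the tissues within each genotype, with 1 residual degree of freedom. Limits are the single library per genotype and tissue, few spleen reads for most of these genes, and collagens whose counts and FPKM differ.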
